A study of Homo sapiens with 6 samples.

Results

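The enzymes that release arachidonic acid from membranes and turn it into prostaglandin E2 (PGE2) were followed in PANC-1 cells, an established human pancreatic ductal adenocarcinoma line. The set held 10 of the 30735 genes listed for each sample. It comprised 4 phospholipases A2 (PLA2G12A, PLA2G4A, PLA2G6 and PLA2G15), both cyclooxygenases (PTGS1 and PTGS2), 3 prostaglandin E synthases (PTGES, PTGES2 and PTGES3) and the prostaglandin-degrading enzyme HPGD. These genes were chosen by their function and from values already measured in this same comparison, so their differences between the groups are given as a description, without a test. All 10 were found by their Ensembl identifiers.

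RNA-seq was performed on 3 samples transfected with CD73 siRNA and 3 with negative control siRNA. CD73 is the cell-surface enzyme encoded by NT5E that makes adenosine from AMP, and the comparison addresses which transcripts lie downstream of it. Both groups were the same cell line, grown in DMEM containing fetal bovine serum and transfected with a lipid reagent in serum-free medium, so the lipid reagent and the lack of serum during transfection were shared by the controls. The labels give no time of harvest and do not say whether the samples of a group came from separate cultures, while the study describes separate knockdown experiments. The p-values below therefore measure the spread between these samples. A single CD73 siRNA product was listed and its sequence is not given, so effects of the siRNA on other transcripts and those of losing CD73 cannot be told apart.

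Prostaglandin synthesis starts when a phospholipase A2 cleaves a fatty acid, often arachidonic acid, from the middle position of a membrane phospholipid. A cyclooxygenase converts free arachidonic acid to the unstable endoperoxide PGH2, and a prostaglandin E synthase isomerises PGH2 to PGE2, which leaves the cell through transporters, acts on receptors at the cell surface, or is inactivated by HPGD. PTGS2 and PTGES are the inducible enzymes of this route in many epithelial tumors, whereas PTGS1, PTGES2 and PTGES3 are regarded as constitutive.

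Values are RPKM, that is, reads divided by gene length and by sequencing depth, which allows levels to be compared between genes. The library totals implied by the values were 15009113 to 16836207 reads per sample. NT5E, the target of the siRNA (chr6:85449584-85495791, forward strand), was listed at 14.0, 13.9 and 17.1 RPKM in negative control replicates 1, 2 and 3 and at 3.36, 6.85 and 8.22 RPKM in CD73 siRNA replicates 1, 2 and 3, which is 41.0% of the control mean. The groups did not overlap, yet the adjusted p of limma was 0.303, and 0.113 in the fit that pairs samples by their replicate number (the block). The log2 difference was -1.23 ± 0.26 (SE of limma). Its SE from the variances within the groups, the kind given for the members below, was 0.34. The exact two-sided permutation test gave 0.1, the smallest p that 3 samples against 3 allow. Of 12527 genes that reached 1 RPKM in 3 or more samples, 392 (3.13%) had an unadjusted limma p below 0.01. Of these, 228 were higher and 164 lower in CD73 siRNA cells. The study also used 0.01 but did not say whether its p was adjusted. With the block 948 genes (7.57%) had an unadjusted p below 0.01. At an adjusted p below 0.05 limma called 1 gene, a Y_RNA copy named after its value was seen, and with the block 0, although 1519 (12.1%) and 2925 genes (23.3%) had an unadjusted p below 0.05. Of the 7 ductal epithelial markers, 6 had a mean of at least 1 RPKM and KRT7 was under 0.25 RPKM in every sample, and their summed level was 72.8 to 104.8 RPKM in CD73 siRNA samples against 137.8 to 255.3 RPKM in controls, mostly KRT8 and KRT18. The part of this difference in keratin level in the results below was not tested. Of the 4 mesenchymal markers, VIM was at 183 to 263 RPKM. CDH2 and ZEB1 had means over all samples of 4.45 and 6.89 RPKM, while FN1 had 0.512 RPKM and was below the filter. The endothelial, endocrine and leukocyte markers analysed were each under 0.25 RPKM in every sample, and of the fibroblast markers COL1A1 and COL3A1 were present while LUM and PDGFRB were under 0.25 RPKM.

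The promoters of PLA2G12A, PTGES and PTGS2 are shown because among the members above 1 RPKM the first had the highest level relative to control and the second the lowest, and the third is the inducible cyclooxygenase, whose level was low in both groups. Each is RefSeq sequence of GRCh38.p14, from 250 bases before to 50 bases after the annotated start, on the strand of the gene. The PLA2G12A window is chr4:109730021-109730320, the PTGES window chr9:129752993-129753292 and the PTGS2 window chr1:186680374-186680673, all on the reverse strand. Capitals mark matches on either strand to 8 motifs. The core promoter elements searched were the TATA box spelled TATAAA, the GC box spelled GGGCGG and the CCAAT box spelled as its name. The factor sites searched were the AP-1 site spelled TGACTCA, the cAMP response element spelled TGACGTCA, the E-box spelled CACGTG, the NF-kB-type site spelled GGGNNTTNC and the EGR1-type site spelled GCGNGGGCG.
PLA2G12A: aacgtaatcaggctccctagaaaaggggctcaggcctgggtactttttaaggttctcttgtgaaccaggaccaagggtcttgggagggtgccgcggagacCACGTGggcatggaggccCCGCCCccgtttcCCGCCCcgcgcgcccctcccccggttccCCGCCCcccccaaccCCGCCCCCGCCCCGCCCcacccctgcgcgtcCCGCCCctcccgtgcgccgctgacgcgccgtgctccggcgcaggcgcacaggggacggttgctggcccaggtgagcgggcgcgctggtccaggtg
PTGES: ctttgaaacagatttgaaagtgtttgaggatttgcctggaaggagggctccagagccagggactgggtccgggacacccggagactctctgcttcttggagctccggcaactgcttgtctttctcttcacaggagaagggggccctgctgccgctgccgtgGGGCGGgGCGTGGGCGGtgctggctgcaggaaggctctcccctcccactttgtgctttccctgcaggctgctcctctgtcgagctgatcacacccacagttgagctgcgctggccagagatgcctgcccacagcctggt
PTGS2: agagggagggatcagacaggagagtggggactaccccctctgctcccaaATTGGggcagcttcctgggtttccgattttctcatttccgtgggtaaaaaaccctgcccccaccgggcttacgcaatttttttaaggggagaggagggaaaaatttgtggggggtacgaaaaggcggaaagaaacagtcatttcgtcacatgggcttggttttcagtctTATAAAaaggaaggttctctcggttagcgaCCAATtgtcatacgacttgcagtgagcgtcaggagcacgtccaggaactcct

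The PLA2G12A window was 73.0% G or C and held 7 GC boxes, at -132, -119, -91, -76, -70, -65 and -45 from the start, together with an E-box at -150 and an EGR1-type match at -75 that overlaps the GC boxes. The PTGES window was 61.7% G or C and held GC boxes at -89 and -78, with an EGR1-type match at -82 overlapping the latter. The PTGS2 window was 50.7% G or C, had a TATA box at -32 and CCAAT boxes at -201 and -2, and was the only window of these 3 with a TATA box. Among all 35116 RefSeq promoters of this length the median was 58.7% G or C, and 45.0% held a GC box, 34.6% a CCAAT box, 11.5% a TATA box, 9.4% an EGR1-type match and 7.3% an E-box. None of the 3 windows contained the exact letters searched for AP-1 (found in 4.9% of promoters), the cAMP response element (1.8%) or the NF-kB type (16.2%). Other spellings of these sites were not searched, so their absence from a window, PTGS2 included, cannot be read from this. GC boxes and EGR1-type matches were not particular to PLA2G12A and PTGES. Of the other members, PLA2G6 and PLA2G15 also had an EGR1-type match, at -88 and -15, with 1 and 4 GC boxes. PTGES3 had 4 GC boxes and an NF-kB-type match at -43, and PTGES2 had 4 GC boxes. PTGS1 and HPGD had 1 and 3 GC boxes, and PLA2G4A had no match to any of the 8 motifs. An E-box was also found in PLA2G6 and HPGD. These matches describe the letters only.

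Expression of the 10 genes in negative control cells spanned from a few reads per library to the top of the transcriptome. PTGES3 was by far the most abundant, with a control mean above that of 99.56% of all genes listed, and PTGES2 stood above 92.6%. PLA2G15, PTGES and PLA2G12A lay close together, above 73.15%, 69.53% and 68.96% of genes, with control means of 3.82 ± 0.74, 2.71 ± 1.10 and 2.55 ± 0.69 RPKM (SD, n = 3), and the control samples of all 3 overlapped in level. PLA2G6 stood above 54.62%, PTGS2 above 43.51% and PLA2G4A above 42.11% of genes, and the control ranges of PTGS2 and PLA2G4A overlapped. PTGS1 and HPGD were near or below the limit of detection. Only 5 of the 10 members (PLA2G12A, PLA2G15, PTGES, PTGES2 and PTGES3) reached 1 RPKM in 3 or more samples, and PTGES did so through its 3 controls and CD73 siRNA replicate 3.

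**Figure D1:**
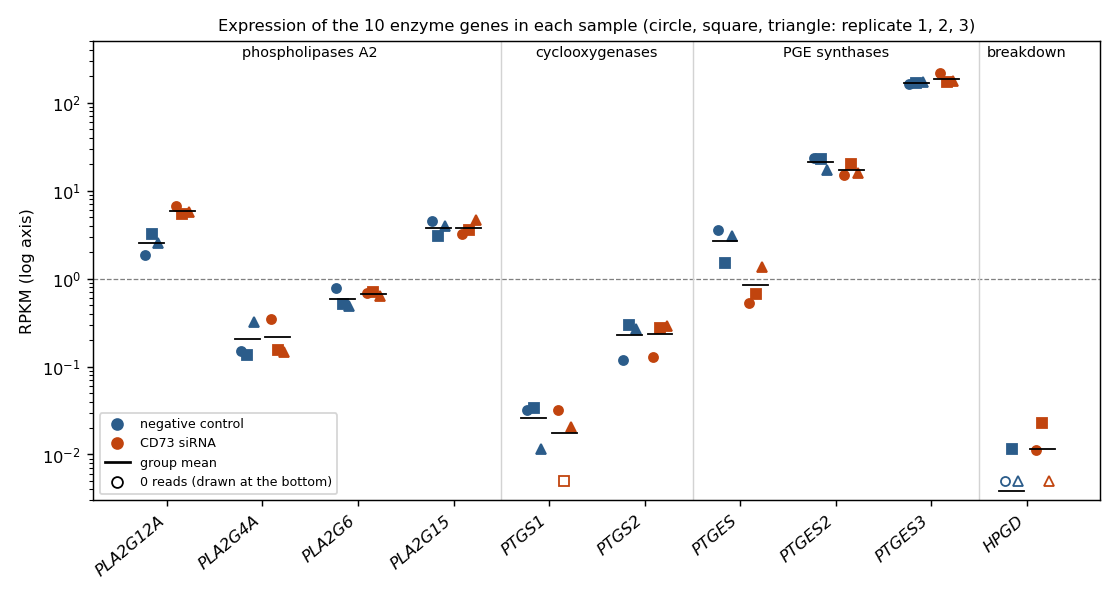
RPKM of the 10 enzyme genes in each sample on a log axis, with negative control in blue, CD73 siRNA in orange, replicates 1, 2 and 3 as circle, square and triangle, and a bar for the group mean. PLA2G12A was at 1.86 to 3.24 RPKM in controls and 5.38 to 6.65 RPKM in CD73 siRNA samples, PTGES was lower in all 3 CD73 siRNA samples, and the cyclooxygenases stayed below 0.3 RPKM in both groups. Open symbols are samples with 0 reads, drawn at the bottom, and the dashed line is 1 RPKM.

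Values of CD73 siRNA and negative control samples did not overlap for 3 of the 10 members: PLA2G12A and PTGES3 were higher, and PTGES lower, in CD73 siRNA cells. All 3 were among the 5 members that passed the filter. Among the 12527 genes that passed it, 18.4% had groups that did not overlap. Since the members were picked with this contrast known, nothing is read from their share. The median log2 difference over the 5 members that passed the filter was 0.001, beside 0.009 over all genes that passed it. Over all 10 members it was 0.01, but 5 of them were below the filter, where the 1 RPKM added before taking logs keeps differences near 0. In these bulk samples a change in the number of cells that express a gene and a change in RNA per cell cannot be told apart.

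Among the phospholipases, PLA2G12A encodes a secreted group XIIA phospholipase A2. It lies on the reverse strand at chr4:109709989-109730077, with 5228 bases of merged exon sequence in 4 transcripts. PLA2G12A was at 1.86, 3.24 and 2.56 RPKM in negative control replicates 1, 2 and 3, and at 6.65, 5.38 and 5.77 RPKM in CD73 siRNA replicates 1, 2 and 3. Every CD73 siRNA sample was above every control, and the gap between the closest samples of the groups, control replicate 2 and CD73 siRNA replicate 2, was wider than the range within either group. The means were 5.94 ± 0.65 and 2.55 ± 0.69 RPKM (SD, n = 3), a ratio of 2.32, and the difference on the log2(RPKM + 1) scale was 0.98 ± 0.18 (SE). Within replicate numbers 1, 2 and 3 this log2 difference was 1.42, 0.59 and 0.93. PLA2G12A ranked 30 from the top of 12527 genes by this difference. Between 156 and 559 reads supported each value, and the exact Poisson 95% intervals, which cover counting error only here and below, were 2.86 to 3.66 RPKM for the highest control and 4.89 to 5.91 RPKM for the lowest CD73 siRNA sample. An annotated coding gene on the same strand, AC126283.2, shares 823 bases, or 15.7%, of the PLA2G12A exons, and its own value was not analysed here.

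The other 3 phospholipases did not separate the groups. PLA2G15, a lysosomal phospholipase A2 (chr16:68245304-68261062, forward strand), was at 4.48, 3.03 and 3.94 RPKM in controls and 3.26, 3.56 and 4.63 RPKM in CD73 siRNA samples. Its means were both 3.82 RPKM, with SDs of 0.735 in controls and 0.720 in CD73 siRNA cells, the log2 difference was 0.00 ± 0.18 (SE), and the samples of the groups interleaved. An antisense gene, AC020978.2, overlaps 4.5% of its exon bases and was at most 0.259 RPKM.

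PLA2G6, a calcium-independent phospholipase A2 (chr22:38111495-38205690, reverse strand), was at 0.775, 0.515 and 0.483 RPKM in controls and 0.681, 0.705 and 0.633 RPKM in CD73 siRNA samples. The highest value belonged to a control and the other 2 controls were below all CD73 siRNA samples, so the groups overlapped, at 49 to 84 reads per sample. An antisense gene, AL022322.2, covers 22.5% of the PLA2G6 exon bases but was at most 0.007 RPKM.

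PLA2G4A encodes the calcium-dependent cytosolic phospholipase A2 that prefers arachidonate-containing phospholipids (chr1:186828953-186988981, forward strand). It was at 0.152, 0.134 and 0.324 RPKM in controls and 0.346, 0.155 and 0.145 RPKM in CD73 siRNA samples, from 6 to 16 reads each. A single sample was high in each group, and the others lay together at the level of 6 or 7 reads. At this depth a difference in PLA2G4A was not detectable: the exact Poisson 95% interval of CD73 siRNA replicate 1 ran from 0.198 to 0.562 RPKM and that of control replicate 3 from 0.177 to 0.544 RPKM.

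Summed over the 4 phospholipases, the level was 7.17 ± 0.22 RPKM in negative control cells and 10.6 ± 0.7 RPKM in CD73 siRNA cells (SD, n = 3). PLA2G12A made up 35.8 ± 10.6% of this sum in controls and 55.8 ± 4.6% in CD73 siRNA cells, while PLA2G15 made up 53.1 ± 9.0% and 35.8 ± 5.8%. PLA2G15 had the larger share in control replicates 1 and 3, PLA2G12A in the 3 CD73 siRNA samples, and in control replicate 2 they took 43.8% and 46.8%. The PLA2G12A shares of the groups did not overlap, but they are computed from the same PLA2G12A values as above and are not a separate result. The sum is a sum of mRNA levels and gives no weight to the activity of each enzyme.

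**Figure D2:**
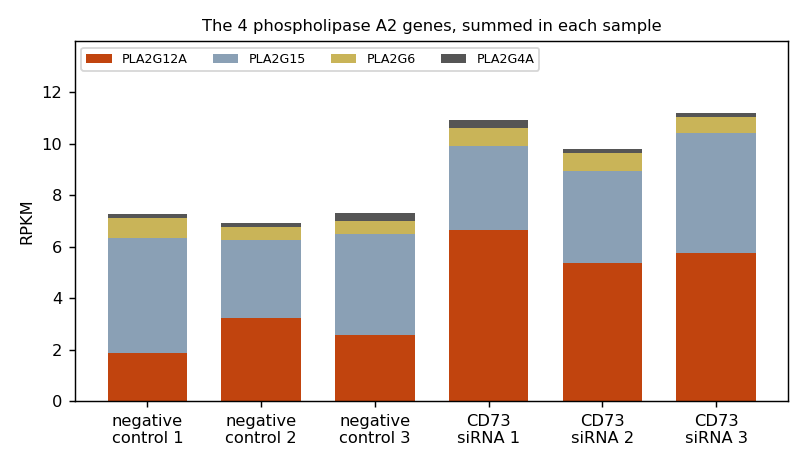
RPKM of the 4 phospholipase A2 genes, stacked for each sample. The total was 6.92 to 7.31 RPKM in the negative controls and 9.80 to 11.2 RPKM in the CD73 siRNA samples, and the PLA2G12A segment is the part that differs between them.

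Both cyclooxygenases were scarce. PTGS2, the inducible enzyme known as COX-2 (chr1:186671791-186680427, reverse strand), was at 0.118, 0.293 and 0.266 RPKM in negative control replicates 1, 2 and 3 and at 0.130, 0.277 and 0.293 RPKM in CD73 siRNA replicates 1, 2 and 3. In both groups replicate 1 was low and replicates 2 and 3 were higher. At these counts, however, the exact Poisson 95% interval of replicate 1 overlapped those of replicates 2 and 3 of its group. The means were 0.226 ± 0.094 and 0.233 ± 0.090 RPKM (SD, n = 3), and the log2 differences within replicate numbers were 0.01, -0.02 and 0.03. With 10 to 26 reads per sample, the exact Poisson 95% interval of control replicate 1 was 0.0567 to 0.218 RPKM and that of CD73 siRNA replicate 3 was 0.192 to 0.429 RPKM. PTGS2 lies 148525 bases from PLA2G4A on chromosome 1, and the levels of both were below 0.35 RPKM in all 6 samples.

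PTGS1, the constitutive enzyme COX-1 (chr9:122370530-122395703, forward strand), had 3, 3 and 1 reads in the controls and 3, 0 and 2 reads in the CD73 siRNA samples, 12 reads in all. These values are at or below the level of 3 reads, which was 0.0308 to 0.0345 RPKM, and no fold is given. The 0 reads of CD73 siRNA replicate 2 allow a level of up to 0.0329 RPKM by that limit.

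The 3 prostaglandin E synthases differed from each other in level and in the direction of their differences. PTGES encodes the membrane-bound, glutathione-dependent synthase that is often induced together with PTGS2 (chr9:129738331-129753047, reverse strand). PTGES was at 3.62, 1.49 and 3.02 RPKM in negative control replicates 1, 2 and 3 and at 0.525, 0.670 and 1.35 RPKM in CD73 siRNA replicates 1, 2 and 3. All 3 CD73 siRNA samples were below all controls, but control replicate 2 and CD73 siRNA replicate 3 were close, with exact Poisson 95% intervals of 1.09 to 2.01 and 0.975 to 1.81 RPKM that overlap. The means were 2.71 ± 1.10 RPKM in controls and 0.847 ± 0.439 RPKM in CD73 siRNA cells (SD, n = 3), the latter 31.3% of control, and the log2 difference was -0.98 ± 0.33 (SE).

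Within replicate numbers 1, 2 and 3 the log2 difference of PTGES was -1.60, -0.58 and -0.78, so it was lower in CD73 siRNA cells in each of the 3 pairs. It ranked 27 from the bottom of the 12527 genes. Because 16 to 110 reads stood behind each value and the levels were near the added 1 RPKM, the difference depended on that constant and was -1.58 with 0.1 RPKM added instead. The intervals of the other samples were further apart: those of CD73 siRNA replicates 1 and 2 ended at 0.852 and 1.04 RPKM, below the 2.42 RPKM at which the interval of control replicate 3 began.

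PTGES2 encodes a membrane-associated prostaglandin E synthase of the Golgi (chr9:128120693-128128462, reverse strand). It was at 23.8, 23.2 and 17.4 RPKM in controls and 15.2, 20.0 and 16.1 RPKM in CD73 siRNA samples, supported by 742 to 1159 reads. The highest values were those of control replicates 1 and 2 and the lowest those of CD73 siRNA replicates 1 and 3, while CD73 siRNA replicate 2 exceeded control replicate 3, so the groups overlapped. The CD73 siRNA mean was 79.6% of control (17.1 ± 2.5 against 21.5 ± 3.5 RPKM), the log2 difference was -0.31 ± 0.18 (SE), and it was -0.61, -0.20 and -0.11 within replicate numbers 1, 2 and 3.

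PTGES3, a cytosolic prostaglandin E synthase better known as a co-chaperone of HSP90 (chr12:56663341-56688408, reverse strand), was at 163.7, 167.2 and 174.1 RPKM in controls and 216.2, 174.7 and 176.0 RPKM in CD73 siRNA samples. CD73 siRNA replicate 1 stood apart, and the remaining 5 samples lay between 163.7 and 176.0 RPKM. The groups met without overlapping, with control replicate 3 at 174.1 RPKM and CD73 siRNA replicate 2 at 174.7 RPKM. The exact Poisson 95% intervals of these samples, 170.5 to 177.8 and 171.2 to 178.3 RPKM, did overlap. The values of the groups overlapped once the samples were shifted to the same median. The ratio of means was 1.12 and the log2 difference 0.16 ± 0.10 (SE), which became 0.06 without CD73 siRNA replicate 1. PTGES3 has processed copies elsewhere in the genome that can share reads with it: PTGES3P1 was listed at 6.45 to 9.40 RPKM and PTGES3P3 at 0.132 to 0.903 RPKM.

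As PTGES3 is so abundant, it made up 87.4 ± 1.9% of the summed prostaglandin E synthase level in controls and 91.2 ± 1.9% in CD73 siRNA cells. PTGES2 accounted for 11.2 ± 1.9% and 8.36 ± 1.84%, and PTGES for 1.41 ± 0.57% and 0.422 ± 0.245% (SD, n = 3). The share of PTGES was at most 0.697% in CD73 siRNA samples and at least 0.779% in controls. As PTGES3 dominates the sum, this share restates the PTGES values above and is not a separate result. The summed level was 192.5 ± 1.9 RPKM in controls and 206.9 ± 21.7 RPKM in CD73 siRNA cells, of which replicate 1 was the highest at 231.9 RPKM.

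HPGD, the dehydrogenase that carries out the initial step of prostaglandin inactivation (chr4:174490177-174523154, reverse strand), had 0, 1 and 0 reads in controls and 1, 2 and 0 reads in CD73 siRNA samples. All values were below the level of 3 reads, which was 0.0322 to 0.0362 RPKM, so no fold is given and a difference was not detectable at this depth.

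The differences of the members were unequal among the replicate numbers. For PLA2G12A, PTGES, PTGES2 and PTGES3, replicate number 1 gave the widest difference of the 3, as it did for NT5E, whose log2 differences were -1.78, -0.92 and -0.98. This was not particular to the members. Of the other tested pathway genes called in either fit or without overlap, all but ELOVL2 also had their widest difference in replicate number 1. In PLA2G12A the wide difference of replicate number 1 came from both groups, since control replicate 1 was the lowest and CD73 siRNA replicate 1 the highest of all 6 samples, and PTGES showed the opposite arrangement, with control replicate 1 the highest and CD73 siRNA replicate 1 the lowest. With only control replicate 1 left out, the log2 difference was 0.83 for PLA2G12A and -0.80 for PTGES. With only CD73 siRNA replicate 1 left out, it was 0.91 and -0.86. A fit without both of these samples was not run. Within replicate numbers 2 and 3 the differences were 0.59 and 0.93 for PLA2G12A and -0.58 and -0.78 for PTGES.

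**Figure D3:**
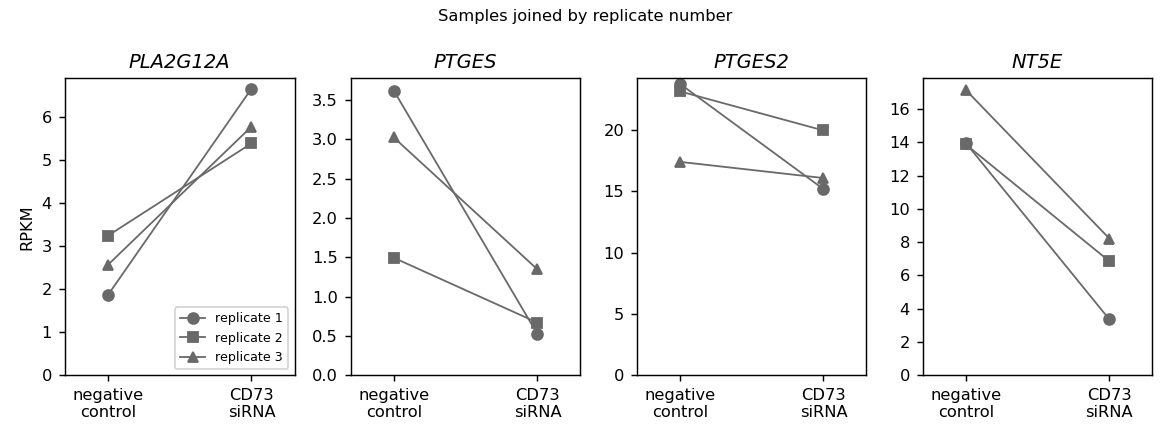
RPKM of PLA2G12A, PTGES, PTGES2 and NT5E in negative control and CD73 siRNA samples, with samples of the same replicate number joined by a line and each axis starting at 0. All lines slope upwards for PLA2G12A and downwards for the other 3 genes, with replicate 1 the steepest in each panel.

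The rest of the pathway was covered by a list of 94 further genes, most of them for enzymes, transporters and receptors of arachidonic acid or its products. The list also held platelet-activating factor acetylhydrolases, annexin and S100 regulators of phospholipase A2, and HSP90 partners of PTGES3. The counts below include these. Of the 94 genes, 11 were not analysed here, 42 were below the filter and 41 were tested. At an unadjusted p below 0.01 limma called 1 gene higher and 1 lower, with 39 not called, against a background of 3.13% of all genes tested, and the median log2 difference was -0.01 beside 0.01 over all genes. With the block, 2 were higher, 3 were lower and 36 were not called, against a background of 7.57%. No gene of the list reached an adjusted p of 0.05 in either fit, and an unadjusted p below 0.05 was found for 5 of the 41 genes without the block and 14 with it, against 12.1% and 23.3% of all genes tested.

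The gene called higher was LPCAT1, which returns fatty acids to lysophospholipids and so acts opposite to the phospholipases. LPCAT1 was at 10.6, 12.6 and 13.6 RPKM in controls and 19.2, 15.9 and 18.9 RPKM in CD73 siRNA samples, without overlap (log2 difference 0.52 ± 0.13, SE, limma adjusted p = 0.303, 0.113 with the block). The gene called lower was ABCC4, a transporter that exports prostaglandins, at 10.7, 9.25 and 11.4 RPKM in controls and 6.72, 7.22 and 8.52 RPKM in CD73 siRNA samples, again without overlap (log2 difference -0.43 ± 0.13, SE, limma adjusted p = 0.307, 0.113 with the block). Both calls depended on single samples: the unadjusted limma p of LPCAT1 was 0.0154, 0.013 and 0.0104 without CD73 siRNA replicate 1, CD73 siRNA replicate 3 or control replicate 1, and that of ABCC4 was 0.0356, 0.0286, 0.0249 and 0.0338 without CD73 siRNA replicate 1, CD73 siRNA replicate 2, control replicate 1 or control replicate 3.

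The block added 3 calls. ANXA1, an annexin known to restrain phospholipase A2, was at 5.28, 9.97 and 3.52 RPKM in controls and 12.0, 12.1 and 5.56 RPKM in CD73 siRNA samples, higher in each replicate number although the groups overlapped (log2 difference 0.61, limma adjusted p = 0.520, 0.119 with the block). S100A10, the partner of annexin A2 that binds cytosolic phospholipase A2, was at 282.1, 233.4 and 214.7 RPKM in controls and 225.4, 212.6 and 174.5 RPKM in CD73 siRNA samples, lower in each replicate number with overlapping groups (log2 difference -0.25, limma adjusted p = 0.494, 0.129 with the block). ELOVL2, which elongates polyunsaturated fatty acids, was at 14.2, 17.4 and 13.9 RPKM in controls and 11.2, 14.5 and 9.11 RPKM in CD73 siRNA samples, also lower in each replicate number with overlapping groups (log2 difference -0.38, limma adjusted p = 0.426, 0.119 with the block). The sizes of all 3 differences rested on single samples in the fit without the block. The log2 difference of ANXA1 was 0.32, 0.96 and 0.94 without control replicate 3, control replicate 2 or CD73 siRNA replicate 3, that of S100A10 was -0.14 without control replicate 1 or CD73 siRNA replicate 3, and that of ELOVL2 was -0.23 without CD73 siRNA replicate 3.

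Groups did not overlap, without a call, for PAFAH1B1, PAFAH1B2 and HSP90AA1, all with higher values in CD73 siRNA cells, which with LPCAT1 and ABCC4 makes 5 of the 41 genes against 18.4% of all genes. PAFAH1B1 and PAFAH1B2 encode subunits of the platelet-activating factor acetylhydrolase, and PAFAH1B2 was at 14.5, 33.4 and 30.1 RPKM in controls and 44.1, 42.6 and 41.0 RPKM in CD73 siRNA samples (log2 difference 0.77, limma adjusted p = 0.357, and 0.41 on the log2 scale without control replicate 1). PAFAH1B1 had a log2 difference of 0.31 (limma adjusted p = 0.347). HSP90AA1, the inducible HSP90 that PTGES3 assists, was at 222.5, 326.2 and 358.9 RPKM in controls and 467.5, 399.9 and 406.4 RPKM in CD73 siRNA samples (log2 difference 0.51, limma adjusted p = 0.353, and 0.31 on the log2 scale without control replicate 1). HSP90AB1, the constitutive HSP90, had means of 1048 and 1062 RPKM and a log2 difference of 0.02 (limma adjusted p = 0.960).

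**Figure D4:**
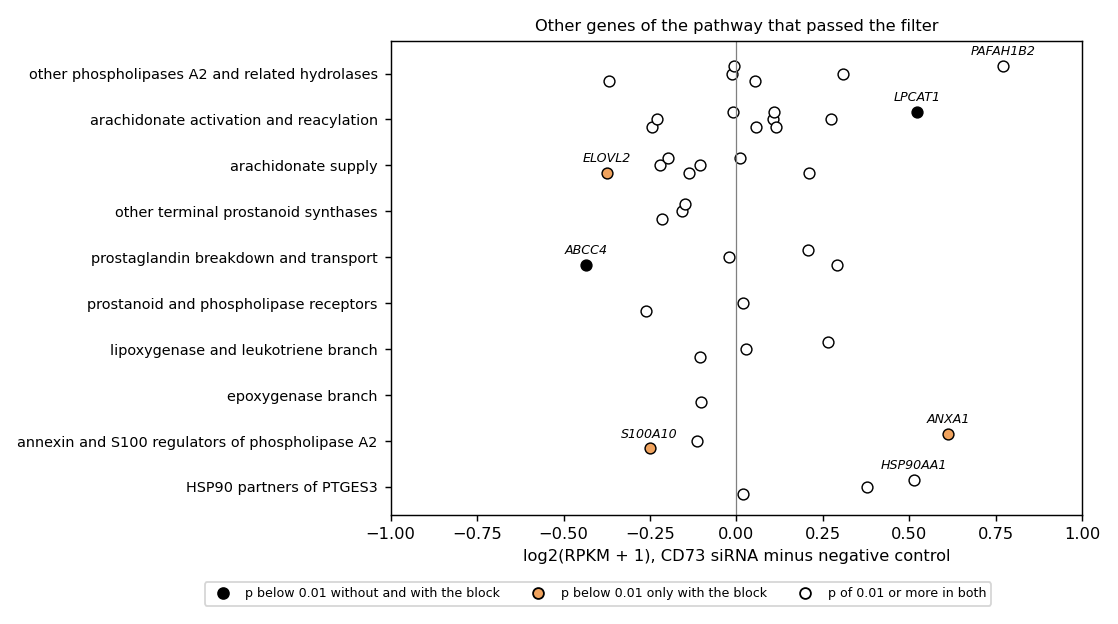
log2(RPKM + 1) difference, CD73 siRNA minus negative control, of the 41 other pathway genes that passed the filter, grouped by role; each point is a gene and points are offset vertically for legibility. Filled black points (LPCAT1 at 0.52 and ABCC4 at -0.43) had an unadjusted limma p below 0.01 without and with the replicate block, orange points (ANXA1, ELOVL2 and S100A10) only with it, and open points in neither fit.

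No gene was called without the block in the remaining roles. Of the 6 tested further phospholipases A2 and related hydrolases 0 were called, and 11 others, from PLA2G1B to PLA2G7, were below the filter. The 3 tested terminal synthases of other prostanoids were not called either, and the one with the highest level, AKR1B1, which can form prostaglandin F2, was at 21.9 ± 2.7 RPKM in controls and 19.5 ± 1.1 RPKM in CD73 siRNA cells (SD, n = 3, log2 difference -0.16, limma adjusted p = 0.609).

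Of the PGE2 receptors, PTGER4 was the one that passed the filter, at 14.2, 15.2 and 12.1 RPKM in controls and 13.1, 16.9 and 12.3 RPKM in CD73 siRNA samples, with the groups interleaved (log2 difference 0.02, limma adjusted p = 0.970). PTGER1, PTGER2 and PTGER3 had means over the 6 samples of 0.311, 0.166 and 0.0218 RPKM. The leading genes of the other roles also had overlapping groups, with log2 differences of 0.11 for the lysophospholipid acyltransferase MBOAT7, -0.14 for the fatty acid elongase ELOVL5, 0.21 for the prostaglandin reductase PTGR3, 0.03 for the leukotriene A4 hydrolase LTA4H and -0.10 for the epoxide hydrolase EPHX1, and limma adjusted p-values of 0.761, 0.640, 0.489, 0.944 and 0.775.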

How the data were processed

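RNA-seq of 6 PANC-1 samples was analysed, 3 with CD73 siRNA and 3 with negative control. The authors deposited 1 table per sample with an RPKM value for each of 30735 genes. Submitters' processing notes name bcl2fastq, Bowtie2 2.2.3, HTSeq 0.6.0 and the build hg38; annotation, strand setting and filters are not given in the sources used here. The unit RPKM was read from the values: multiplied by merged exon lengths of GENCODE release 29, the values of genes worth fewer than 1000 reads were whole reads, within 0.02 of a read, in 95.1% to 95.2% of them. This gave library totals and reads per value, which were used for precision and not tested. Of the identifiers, 132 were absent from release 29 and 30384 matched a symbol. Depth limits are those of 3 reads, and intervals are exact Poisson at 95%, which cover counting error only.

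Values were compared as log2(RPKM + 1) with limma 3.58.1 (lmFit, eBayes with trend, R 4.3.3) over genes that reached 1 RPKM in 3 or more samples, with Benjamini-Hochberg adjustment. Calls used the limit of the study, 0.01 for the unadjusted p. The constant understates changes of low genes. The SE beside a log2 difference is that of limma for NT5E, LPCAT1 and ABCC4. For the members it comes from the variances within the groups. The script was tested on simulated data. Samples with the same replicate number deviated together (correlations 0.197, 0.481 and 0.553, all above 0.1), so the numbers were taken to pair the samples and the fit with the number as a block is given where it changed a call. No pair of samples had identical values.

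The members and gene lists were chosen with earlier results of these data known. Named genes are the 10 members, NT5E and, of the other pathway genes, those called in either fit, those whose groups did not overlap with at least 5 RPKM in a group, and the highest of each role. Coordinates are of GRCh38, and promoters were from RefSeq (10 of 10 members matched). Markers of pancreatic acinar cells were not analysed here. Alternatives were 0.1 RPKM as the constant, no filter, a shift of samples to the same median, no trend, the block and leaving out each sample.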

Additional observations from a re-analysis of the deposited data

How the results depend on the processing

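Among the 10 enzymes, the members that passed the filter kept their direction in all 11 alternatives, except PLA2G15, whose difference was near 0. With 0.1 RPKM added in place of 1, PLA2G12A had a log2 difference of 1.21, PTGES -1.58, PTGS1 -0.10 and HPGD 0.10, the last pair from 3 reads or fewer per sample. With each sample left out in turn, the log2 difference ranged from 0.83 to 1.12 for PLA2G12A, from -1.25 to -0.80 for PTGES, from -0.45 to -0.23 for PTGES2 and from 0.06 to 0.21 for PTGES3, and from -1.44 to -0.904 for NT5E.

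The replicate block, in which samples were paired by number, raised the genes called from 392 to 948 and the other pathway genes called from 2 to 5, and it changed no other call named in the text. The calls depended on single samples. Leaving out each in turn gave 116 to 792 genes, with 116 without CD73 siRNA replicate 1, 188, 792 and 258 without control replicate 1, 2 or 3, and 0 to 3 pathway genes, with 0 without CD73 siRNA replicate 1 and 1 without CD73 siRNA replicate 3 or control replicate 1. The cause of this dependence was not tested. PAFAH1B2 passed p below 0.01 without control replicate 1 (log2 0.41) or 2 (0.99), HSP90AA1 without control replicate 3 (0.65) and ELOVL2 without CD73 siRNA replicate 2 (-0.54). Over the left-out samples their log2 differences ranged from 0.41 to 0.99, from 0.31 to 0.65 and from -0.54 to -0.23, and those of ANXA1 and S100A10 from 0.32 to 0.96 and from -0.34 to -0.14. Differences near 0 turned sign: HSP90AB1 (-0.0558 to 0.0931 over the left-out samples) was -0.0234, -0.00963 and -0.0558 without CD73 siRNA replicate 1, CD73 siRNA replicate 3 or control replicate 2, EPHX1 (-0.203 to 0.00996) was 0.00996 without control replicate 1, PTGER4 (-0.112 to 0.107) was -0.00025 after the median shift and -0.112 and -0.0682 without CD73 siRNA replicate 2 or control replicate 3, and LTA4H (-0.0571 to 0.0801) was -0.0571 and -0.00424 without CD73 siRNA replicate 1 or control replicate 2. The median shift was at most 0.03 log2 units in any sample. A count test was not run because the files hold no counts. Depth limits PTGS1, HPGD, PTGS2 and PLA2G4A, each at 26 reads or fewer per sample.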
